A study of Bos taurus with 111 samples.

Results

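Muscle transcriptomes of a beef breed and a dairy breed were compared in a second high concentrate feeding phase (H2). The samples were biopsies of M. longissimus thoracis et lumborum, the loin muscle, from Charolais (CH) steers, a late-maturing beef breed, and Holstein-Friesian (HF) steers, a dairy breed. The comparison took every library labelled H2, and libraries with fewer than 1000000 reads counted on genes were set aside. Of 33 H2 libraries 30 were kept, among 105 kept libraries of the series (38 from H1, 37 from ZG), and these 30 were 14 from CH and 16 from HF, each from a different steer. Within each breed the steers were of low (L-RFI) or high (H-RFI) residual feed intake, the intake of an animal beyond that predicted from its size and growth. Both classes were equally represented, with 7 CH and 8 HF steers in each, and the RFI class was a covariate in the test of breed.

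All steers were castrated males that had passed through an earlier high concentrate phase (H1) and a zero-grazed grass phase (ZG) before H2, each with a measurement period of 70 days. By the labels, the mean age was 283 days in CH and 306 days in HF when the first phase began, and mean body weight was 675 and 611 kg when H2 began. Breed, age and body weight therefore cannot be told apart here. The labels give no sequencing batch.

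Skeletal muscle stores lipid inside its fibres and in fat cells that lie between fibre bundles as marbling. Fat cells take up or synthesise fatty acids and keep them as triglyceride in lipid droplets, and genes for these steps are read in bulk muscle only as far as fat cells or lipid-storing fibres are in the biopsy. Dairy breeds are generally known to deposit marbling fat at a lighter carcass weight than late-maturing continental beef breeds, whereas beef breeds are known for muscle mass. A concentrate-fed finishing phase is the time when marbling fat is usually laid down.

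Reads counted on genes ranged from 2201765 to 38953671 in the 30 libraries, with a median of 12756385 in CH and 17662286 in HF. The mean log10 count differed by -0.16 (CH minus HF), with p = 0.067 in a two-sided permutation test. The 3 libraries set aside held 592192, 146321 and 6062 counts. CH L-RFI replicate 7, the shallowest library kept, stood apart on the second principal component of the log2 values (105, against -18.2 to 18.6 in the other 29 libraries). The count of genes that passed and the mitochondrially encoded genes are also given without it. GSTM3 and CD248, for which it was the highest CH library, are not. The first component, 59.8% of the variance, spread the libraries of both breeds widely, from -72.9 to 116 in CH (median -24.6) and from -96.7 to 99.4 in HF (median 6.86), and counts with it as a covariate are given with the other settings at the end. Symbols were known for 151 of the 24616 gene identifiers, and they came from a table of genes the study selected in these same libraries. The study chose them on RFI contrasts within each breed and diet, and some on the interaction of diet and breed. A breed or phase difference in these genes is therefore not independent of that choice, and most genes of each pathway below were not analysed here. None of 16 skeletal muscle markers had a symbol, so the tissue was checked only through 4 genes of the slow-type list (MYH6, CSRP3, MYL6B and PLN). Some of these are shared with cardiac muscle. Their summed level was 431 to 1377 counts per 1000000 counted reads (CPM) in CH and 435 to 1488 CPM in HF.

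Few genes passed the test of breed. Testing was restricted to 9966 genes that reached 1 CPM in 50% or more of the libraries, of which 1 gene (0.01%) passed an adjusted p of 0.1 and a fold change of 1.5 in edgeR's quasi-likelihood test, and it was higher in CH. At an unadjusted p under 0.05 there were 575 genes, 239 (2.4%) higher in CH and 336 (3.37%) lower in CH. With RLE size factors in place of TMM, the split was 198 to 388, and with library size alone it was 210 to 211. The number of genes whose breeds did not overlap was 0. The median log2 difference over all genes was 0.02. The filter took no account of breed, so a gene with a CH median under 1 CPM could reach testing mainly through HF libraries. Of the genes named below, this concerns ENSBTAG00000047547, ENSBTAG00000011196, CYP4B1, ANGPTL8, FOSB, LCP1, CD3E, PTPRC and SOX18.

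**Figure D1:**
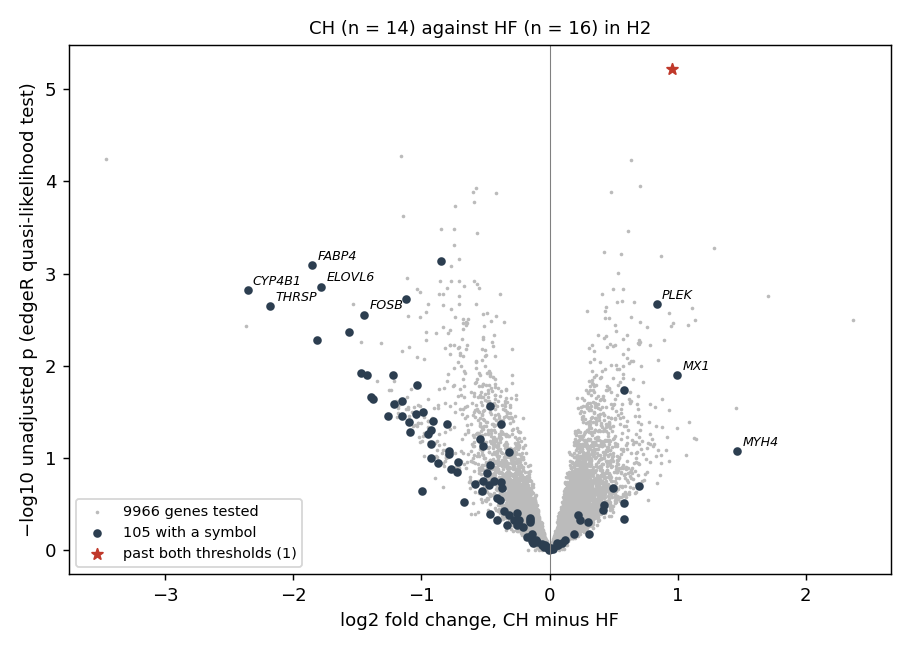
Breed difference in H2 for 9966 genes, with the log2 fold change (CH minus HF) on the x axis and −log10 of the unadjusted p on the y axis. The star is the 1 gene past both thresholds, dark points are 105 genes with a symbol, and FABP4, ELOVL6, THRSP and CYP4B1 lie furthest to the left among the labelled genes.

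The gene that passed was ENSBTAG00000004249, for which no symbol was at hand. Its normalized level was 4.13 to 11.7 CPM in CH, with a median of 6.94 CPM, and 1.74 to 6.30 CPM in HF, with a median of 3.69 CPM. All 14 CH steers lay above the HF median, although the ranges overlapped. CH exceeded HF by 0.96 ± 0.18 (SE) on the log2 scale, with an adjusted p of 0.0598, and was 0.94 in L-RFI and 0.97 in H-RFI steers. The adjusted p lay between 0.0105 and 0.178 when each library was left out in turn, and the gene no longer passed in 17 of these 30 fits. These were the fits without CH L-RFI replicates 1, 4 and 6, CH H-RFI replicates 5, 6 and 7, HF H-RFI replicates 1, 2, 3, 5, 7 and 8, and HF L-RFI replicates 1, 2, 3, 6 and 7.

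The other genes without a symbol that came closest to the threshold had an adjusted p of 0.147. ENSBTAG00000024633 ranged from 7.52 to 18 CPM in CH and from 5.15 to 9.55 CPM in HF, with a log2 difference of 0.64 ± 0.14 (SE). ENSBTAG00000011196 ranged from 0 to 1.97 CPM in CH and from 0.695 to 2.60 CPM in HF, with a log2 difference of -1.16 ± 0.25 (SE). Both sets of ranges overlapped, with every CH steer above the HF median for the former gene and 13 of 14 CH steers below it for the latter. ENSBTAG00000047547 had a median of 0.0633 CPM in CH (highest 5.16 CPM) and of 7.83 CPM in HF (lowest 0.109 CPM, highest 26.4 CPM). All 14 CH steers lay below the HF median of this gene, and its log2 difference was -3.46 ± 0.74 (SE). With so low a CH median, the gene reached testing mainly through HF libraries, where it was high. All 4 genes passed without CH L-RFI replicate 7, where 7 genes passed in total, and also without HF H-RFI replicate 6, where 8 genes passed.

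Fat cell markers had lower fitted levels in CH, without passing. All 4 measured members, FABP4, CIDEC, TRARG1 and ANGPTL8, had negative log2 differences, from -1.86 to -1.38 with a median of -1.5, beside 0.02 for all genes. None passed the adjusted threshold, and all 4 had an unadjusted p under 0.05, beside 3.37% of all genes in that direction. Among the 105 tested genes with a symbol, from which every list member had to come, 26 had an unadjusted p under 0.05 lower in CH and 3 higher in CH, and their median was -0.38. Without HF H-RFI replicate 7, 3 of the 4 markers had such a p. Their summed level was 1.37 to 120 CPM in CH, with a median of 11.1 CPM, and 10.0 to 137 CPM in HF, with a median of 36 CPM. In a bulk biopsy, fewer fat cells and less RNA per fat cell cannot be told apart.

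FABP4, the fatty acid binding protein of fat cells, was 0.421 to 31.5 CPM in CH (median 3.11 CPM) and 2.98 to 49.9 CPM in HF (median 12.8 CPM). The lowest steers were CH L-RFI, and 12 of 14 CH steers lay below the HF median, but the ranges of the breeds overlapped widely. FABP4 had a log2 difference of -1.86 ± 0.50 (SE), with an unadjusted p of 0.000807 and an adjusted p of 0.326.

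CIDEC, a lipid droplet protein that promotes the growth of droplets, had medians of 3.48 CPM in CH and 10.8 CPM in HF. Its log2 difference of -1.38 ± 0.57 (SE) had an adjusted p of 0.758. TRARG1, which takes part in the trafficking of the insulin-responsive glucose transporter in fat cells, ranged from 0.316 to 30.6 CPM in CH and from 3.28 to 34.3 CPM in HF. Its medians were 2.23 and 9.21 CPM, and 13 of 14 CH steers lay below the HF median. The log2 difference was -1.57 ± 0.51 (SE), with an adjusted p of 0.432. ANGPTL8, a secreted regulator of lipoprotein lipase, had medians of 0.974 CPM in CH and 2.02 CPM in HF and a log2 difference of -1.43 ± 0.54 (SE, adjusted p = 0.648).

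A single library weighed on these values. CH H-RFI replicate 4 was the CH library with the highest level of FABP4, CIDEC, TRARG1, ANGPTL8, FASN and THRSP. Its CIDEC level was 49.9 CPM, whereas the next CH library had 12.1 CPM. Without it, FABP4 (log2 difference -2.21) and TRARG1 (-2.07) both passed with an adjusted p of 0.0689, and 7 genes passed in total.

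**Figure D2:**
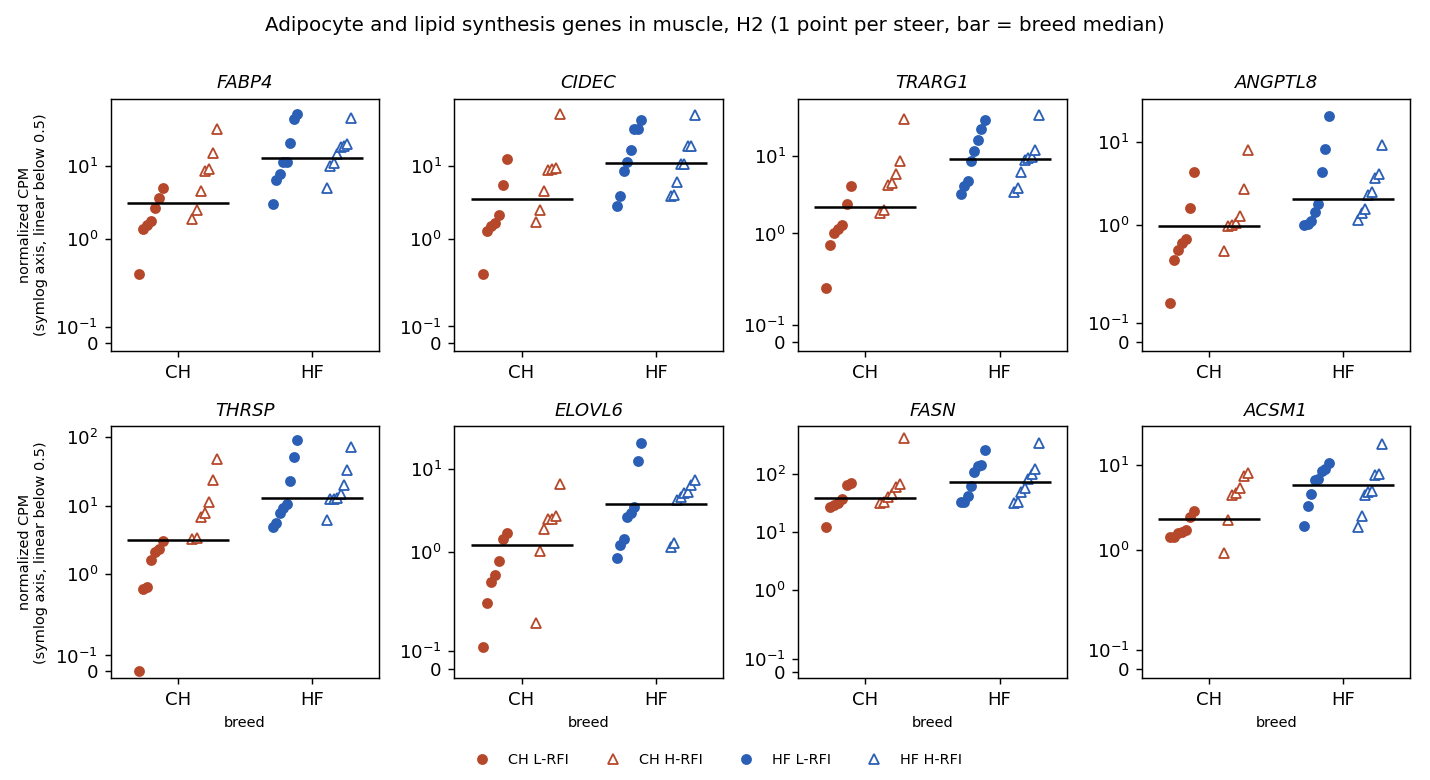
Normalized level (CPM, symlog axis that is linear below 0.5) of 4 fat cell genes, 3 genes of fatty acid synthesis and ACSM1, with 1 point per steer, filled circles for L-RFI, open triangles for H-RFI and a bar at the breed median. The CH medians lie below the HF medians in all 8 panels, the lowest CH steer is L-RFI in every panel but that of ACSM1, and the breeds overlap.

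Genes of fatty acid synthesis had the same sign. All 3 measured members had a negative log2 difference, with a median of -1.79, and 2 of them had an unadjusted p under 0.05. In that direction, 3.37% of all genes and 26 of 105 genes with a symbol had such a p. The median of those 105 genes was -0.38. THRSP, a small nuclear protein that promotes fatty acid synthesis in fat-storing tissues, ranged from 0 to 47.9 CPM in CH (median 3.16 CPM) and from 4.84 to 90.5 CPM in HF (median 12.9 CPM). No HF steer had under 4.84 CPM, and the CH library at 0 was L-RFI replicate 1. For THRSP the fit gave a log2 difference of -2.18 ± 0.66 (SE), with an adjusted p of 0.388. ELOVL6, which elongates saturated and monounsaturated fatty acids, ranged from 0.121 to 6.61 CPM in CH (median 1.22 CPM) and from 0.838 to 20.2 CPM in HF (median 3.82 CPM). With 13 of 14 CH steers below the HF median, its log2 difference was -1.79 ± 0.51 (SE, adjusted p = 0.371).

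FASN, the enzyme that builds palmitate, had medians of 38.5 CPM in CH and 72.7 CPM in HF. Its log2 difference was -0.72 ± 0.44 (SE), with an unadjusted p of 0.111. CH H-RFI replicate 4 had 412 CPM of FASN, the highest of all 30 libraries, and the other CH libraries reached at most 69.6 CPM. The difference was -1.28 without that library, the lowest value when each library was left out, and the highest was -0.45.

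The levels of several lipid genes were correlated with that of FABP4 across the steers of a breed. The relation of log2 FABP4 with 10 genes was computed in each breed, 20 relations in all, with permutation tests adjusted over the 20. With CIDEC, Pearson's r was 0.951 among the 14 CH steers (adjusted permutation p = 1e-04) and 0.883 among the 16 HF steers (adjusted permutation p = 0.00012), and Spearman's rho was 0.916 and 0.921 (both adjusted permutation p = 8e-05). With THRSP, r was 0.938 in CH and 0.811 in HF (adjusted permutation p = 1e-04 and 2e-04), and rho was 0.864 and 0.865 (adjusted permutation p = 0.000767 and 8e-05). Without the 2 steers furthest from the FABP4 median, r was 0.886 and 0.852 for CIDEC and 0.869 and 0.734 for THRSP. With FASN, r was 0.833 in CH and 0.755 in HF (rho 0.745 and 0.691, adjusted permutation p of r 0.000378 and 0.00138), and 0.590 and 0.668 without those 2 steers. ELOVL6 followed FABP4 in CH (r = 0.650, rho = 0.710, adjusted permutation p = 0.0174 and 0.0104, r = 0.743 without those 2 steers). In HF, r for ELOVL6 was 0.511 and rho 0.5 (adjusted permutation p = 0.061 and 0.0719), and r was 0.278 without those 2 steers. For PTPRC, a leukocyte gene, r with FABP4 was -0.118 in CH and 0.0101 in HF (rho -0.108 and -0.0118), with adjusted permutation p of 0.717 and 0.970 for r. The RFI classes were pooled in these relations, and most of the genes have a symbol because they differed between the classes in these libraries. With values centred within each class, r in CH was 0.944 for CIDEC, 0.910 for THRSP, 0.816 for FASN and 0.472 for ELOVL6, and in HF 0.899, 0.810, 0.761 and 0.507. The genes of a library also share its depth and normalization, which these correlations do not separate.

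Among genes of fatty acid uptake and oxidation, 3 of 4 measured members had a negative difference, with a median of -0.26. Of the 4, 1 had an unadjusted p under 0.05, lower in CH, and the median of all genes with a symbol was -0.38. ACSM1, a mitochondrial enzyme that activates medium-chain fatty acids, ranged from 0.922 to 8.05 CPM in CH (median 2.33 CPM) and from 1.88 to 18.1 CPM in HF (median 5.88 CPM). The log2 difference was -1.12 ± 0.33 (SE, adjusted p = 0.385), and 12 of 14 CH steers lay below the HF median. SLC27A6, a fatty acid transporter, had medians of 2.49 and 3.97 CPM, and its log2 difference was -0.53 ± 0.43 (SE, unadjusted p = 0.228). PDK4, the kinase that shuts pyruvate out of mitochondrial oxidation in fasting, had medians of 10.9 CPM in CH and 18 CPM in HF, yet a fitted log2 difference of 0.58 ± 0.79 (SE). CH L-RFI replicate 1 had 444 CPM of PDK4, and without this library the difference was -0.85. It was also negative with DESeq2 (-0.14). PLIN5, a droplet protein of oxidative fibres, made up the rest of the list with a difference near 0.

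**Figure D3:**
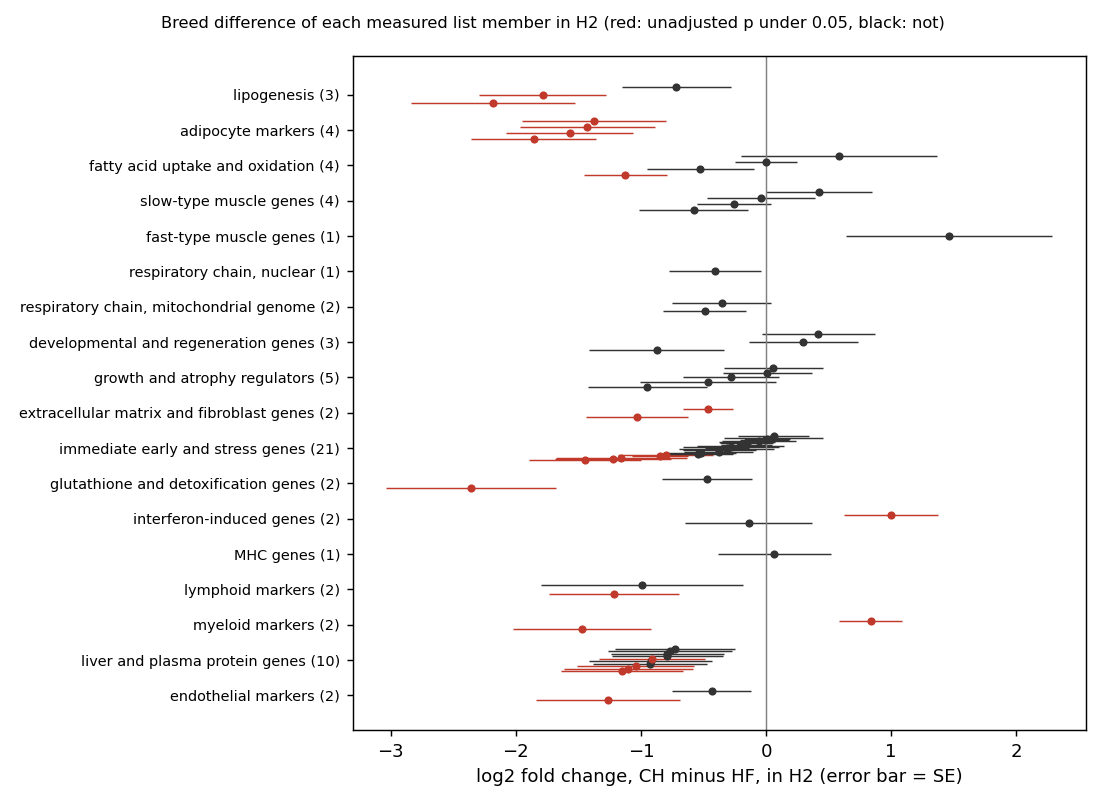
Log2 fold change (CH minus HF) in H2 of every list member that was tested, with its SE as error bar, grouped by gene list on the y axis with the number of members in brackets. Red points have an unadjusted p under 0.05, none of the members passed the adjusted threshold, and the members of the fat cell, fatty acid synthesis and plasma protein lists all lie to the left of 0, as do those of several smaller lists.

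Detoxification genes and genes of amino acid and energy metabolism also included low values in CH. CYP4B1, a cytochrome P450 that oxidises fatty acids and foreign compounds, had a median of 0.550 CPM in CH (range 0.242 to 7.58 CPM) and of 3.59 CPM in HF (range 0.0592 to 19.6 CPM). Some HF steers were as low as the CH steers, and the ranges overlapped. The log2 difference of -2.36 ± 0.68 (SE) had an adjusted p of 0.371. CYP4B1 reached testing mainly through HF libraries, since its CH median was under the 1 CPM of the filter. It had no value with unstranded counts or with the libraries under 1000000 counts kept. GSTM3, a glutathione transferase, had medians of 36.8 and 63.6 CPM and a log2 difference of -0.47 ± 0.36 (SE, unadjusted p = 0.198). The following genes were chosen after their values were seen. SDS, which breaks down serine, had medians of 2.63 and 4.96 CPM and a log2 difference of -1.82 ± 0.60 (SE, adjusted p = 0.465). CKB, the brain-type creatine kinase, differed by -1.39 ± 0.58 (SE, adjusted p = 0.752) on the log2 scale, and PCK2, a mitochondrial enzyme of glyceroneogenesis and gluconeogenesis, by -0.99 ± 0.44 (SE, adjusted p = 0.778). CH H-RFI replicate 4 was again the highest CH library for CKB (22.6 CPM, with 4.27 CPM in the next) and for PCK2 (10.9 CPM, with 4.27 CPM in the next).

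Contractile genes showed no breed difference that passed. Of 4 slow-type genes 0 passed and the number with an unadjusted p under 0.05 was 0. MYH6, the alpha cardiac myosin heavy chain that was listed here as slow-type, ranged from 110 to 505 CPM in CH and from 62.8 to 751 CPM in HF. Its log2 difference was -0.25 ± 0.30 (SE). CSRP3, a Z-disc protein of slow and cardiac muscle, had medians of 92.6 and 199 CPM and a log2 difference of -0.58 ± 0.43 (SE, unadjusted p = 0.191). MYH4, the myosin heavy chain of the fastest fibres and the only fast-type gene measured, had medians of 3.40 CPM in CH and 2.37 CPM in HF. Its values were set by single steers, with 90.4 and 58 CPM in CH H-RFI replicate 2 and a CH L-RFI steer and 67.6 CPM in HF L-RFI replicate 5, whereas no other HF steer exceeded 3.62 CPM. MYH4 had a log2 difference of 1.46 ± 0.82 (SE, adjusted p = 0.951) and moved between 0.24 and 2.66 when each library was left out.

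ACTC1, the cardiac actin that muscle fibres express during development and repair, ranged from 2.28 to 17.7 CPM in CH and from 1.62 to 106 CPM in HF, with a log2 difference of -0.87 ± 0.54 (SE, unadjusted p = 0.113). INHA, the inhibin alpha subunit, headed 5 growth and atrophy regulators, of which 0 passed. Its medians were 1.07 CPM in CH and 2.51 CPM in HF, and its log2 difference was -0.95 ± 0.48 (SE, adjusted p = 0.867). The mitochondrially encoded MT-CO3, a subunit of cytochrome oxidase, had medians of 24030 and 45020 CPM, with a log2 difference of -0.49 ± 0.33 (SE, unadjusted p = 0.146). MT-ND3, a subunit of complex I, differed by -0.35 ± 0.40 (SE, unadjusted p = 0.378). The highest CH library for both was L-RFI replicate 7, the shallowest library. Without it, MT-CO3 differed by -0.77 (unadjusted p = 0.0186, adjusted p = 0.625) and MT-ND3 by -0.80 (unadjusted p = 0.0381, adjusted p = 0.699) on the log2 scale. MT-ND3 was -0.21 without HF L-RFI replicate 6. MICAL2, which regulates actin filaments, was a gene with higher levels in CH, with medians of 41.2 and 31.8 CPM and a log2 difference of 0.58 ± 0.23 (SE, adjusted p = 0.724). BDP1, a transcription factor subunit of RNA polymerase III, had a log2 difference of 0.70 ± 0.54 (SE, unadjusted p = 0.204).

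Immediate early genes are transcribed in muscle within minutes of stimulation or injury. Of 21 measured members, 18 had a negative value and 5 had an unadjusted p under 0.05, all lower in CH, with a median of -0.31. This is close to the 26 of 105 genes and the median of -0.38 among all genes with a symbol. The study also reports FOS and FOSB for its interaction of diet and breed, so their breed differences are not independent of that choice. FOSB, a subunit of the AP-1 transcription factor, had medians of 0.931 and 1.61 CPM and a log2 difference of -1.45 ± 0.45 (SE, adjusted p = 0.400). EGR1, a zinc finger transcription factor, ranged from 1.26 to 14.2 CPM in CH and from 0.994 to 94.0 CPM in HF. With 13 of 14 CH steers below the HF median, its log2 difference was -1.22 ± 0.46 (SE, adjusted p = 0.648). The HF maximum came from L-RFI replicate 8, and the next HF library had 27.5 CPM. The EGR1 difference was -2.20 in L-RFI and -0.29 in H-RFI steers, and it moved between -1.56 and -0.84 when each library was left out. FOS differed by -1.16 ± 0.52 (SE, adjusted p = 0.789) and JUNB by -0.80 ± 0.38 (SE, adjusted p = 0.821).

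Leukocyte and interferon genes gave mixed signs. PLEK, a protein of platelets and myeloid cells, had a higher level in CH, at 0.858 to 4.81 CPM (median 1.90 CPM) against 0.472 to 2.43 CPM in HF (median 1.29 CPM). The log2 difference was 0.84 ± 0.25 (SE, unadjusted p = 0.00216, adjusted p = 0.385), and the ranges overlapped. LCP1, an actin bundling protein of leukocytes and the other measured myeloid marker, had medians of 0.875 and 1.91 CPM and a log2 difference of -1.47 ± 0.55 (SE, adjusted p = 0.646). CD3E, a subunit of the T cell receptor complex, differed by -1.21 ± 0.52 (SE, adjusted p = 0.758) and PTPRC, the common leukocyte antigen CD45, by -0.99 ± 0.81 (SE, unadjusted p = 0.230). The difference of PTPRC was -2.06 without CH L-RFI replicate 6 (unadjusted p = 0.0054, adjusted p = 0.522), and it was 0.55 in L-RFI and -2.68 in H-RFI steers. The summed level of both lymphoid genes reached 18.1 CPM in CH and 41.2 CPM in HF, with medians of 1.94 and 2.49 CPM. Of 6 lymphoid and 6 myeloid markers with a symbol, 4 in each list did not reach the level for testing, among them LYZ, CSF3R, CD53 and ZAP70. Of 2 interferon-induced genes tested, IDO1 and MX1, 0 passed. MX1, an antiviral protein induced by interferon, ranged from 1.36 to 24.6 CPM in CH and from 1.03 to 4.88 CPM in HF, with medians of 2.71 and 2.31 CPM. Its highest values, 24.6 and 23.8 CPM, came from CH H-RFI steers, and its log2 difference was 1.00 ± 0.38 (SE, adjusted p = 0.648).

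Messages of liver and plasma proteins were measured in muscle, and all 10 tested members had a negative difference (median -0.92). Of these, 4 had an unadjusted p under 0.05, beside 3.37% of all genes and 26 of 105 genes with a symbol, and 0 did when the libraries under 1000000 counts were kept. ALB, serum albumin, ranged from 23.1 to 293 CPM in CH (median 56.2 CPM) and from 20.1 to 1451 CPM in HF (median 87.5 CPM). The HF maximum came from H-RFI replicate 6, and the next HF library had 272 CPM. The log2 difference of ALB was -1.10 ± 0.51 (SE, unadjusted p = 0.0407, adjusted p = 0.814), and it was -0.32 without HF H-RFI replicate 6. C5, a complement protein, differed by -1.15 ± 0.49 (SE, adjusted p = 0.758), AHSG, the fetuin of blood, by -1.04 ± 0.47 (SE, adjusted p = 0.785), ORM1, an acute phase protein, by -0.91 ± 0.43 (SE, adjusted p = 0.814) and FGB, the fibrinogen beta chain, by -0.73 ± 0.48 (SE, unadjusted p = 0.142). The same HF library had the highest level of each of these genes. Without it, C5 was -0.49, AHSG -0.53, ORM1 -0.57 and FGB -0.14 on the log2 scale, with unadjusted p of 0.244, 0.207, 0.167 and 0.745 in the quasi-likelihood test. RNA from other tissue in the biopsy or tube was not tested as a source.

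Connective tissue and vessel genes were few. CD248, a surface protein of fibroblasts and pericytes, had medians of 2.18 CPM in CH and 4.03 CPM in HF and a log2 difference of -1.03 ± 0.41 (SE, adjusted p = 0.707). CCN2, a matricellular growth factor, differed by -0.46 ± 0.20 (SE, adjusted p = 0.758), with 13 of 14 CH steers below the HF median. SOX18, a transcription factor of endothelial cells, was 0 to 1.85 CPM in CH and 0 to 6.14 CPM in HF, with a log2 difference of -1.26 ± 0.57 (SE, adjusted p = 0.789). All 14 CH steers lay below the HF median of 1.86 CPM. Depth limits such genes, since 3 counts correspond to 1.36 CPM in the shallowest library and to 0.213 CPM in a library of median depth. ANGPTL2, a secreted protein of fat cells and vessels that was chosen after its values were seen, had medians of 13.6 and 15.6 CPM and a log2 difference of -0.38 ± 0.18 (SE, adjusted p = 0.821).

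**Figure D4:**
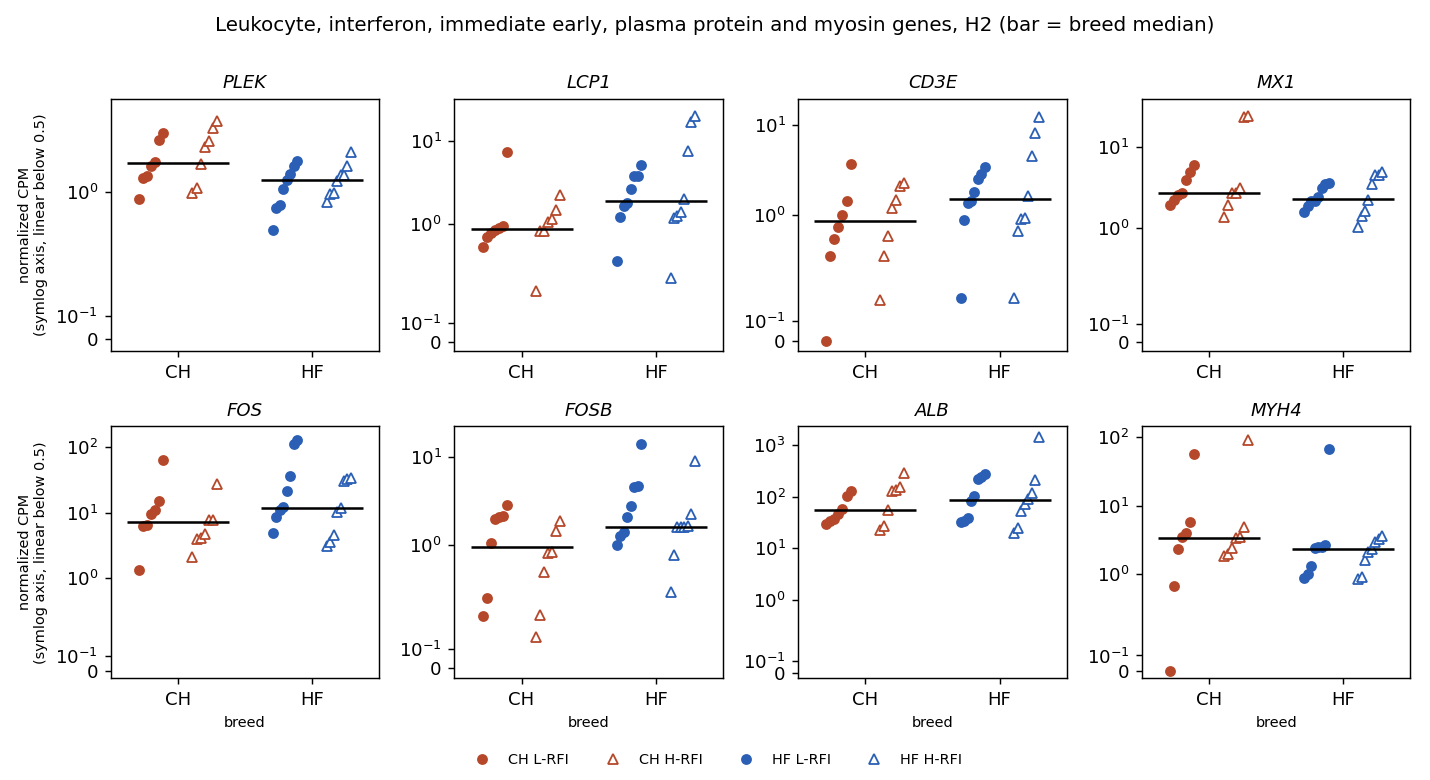
Normalized level (CPM, symlog axis that is linear below 0.5) of 8 genes outside lipid metabolism, drawn per steer with a bar at the breed median. PLEK, MX1 and MYH4 have the higher median in CH, a few steers set the highest values of MX1, ALB and MYH4, and the breeds overlap in every panel.

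Whether the breeds differed in the same way in both RFI classes was tested by an interaction term. Of 9966 genes, 0 (0%) had an adjusted p under 0.1 in the quasi-likelihood test, in which 97 genes had an unadjusted p under 0.05. DESeq2's likelihood ratio test also gave 0, with 133 genes at an unadjusted p under 0.05. The fat cell and fatty acid synthesis genes had larger breed differences among L-RFI steers, without passing. For THRSP the log2 difference was -4.11 in L-RFI and -0.64 in H-RFI steers (unadjusted p of the interaction 0.00174, adjusted p = 1). For FABP4 it was -3.15 in L-RFI and -0.76 in H-RFI steers, and the unadjusted p was 0.00798. FABP4 medians were 1.76 CPM in CH L-RFI, 8.38 CPM in CH H-RFI, 11.1 CPM in HF L-RFI and 16.2 CPM in HF H-RFI steers. TRARG1 (-2.90 and -0.42, unadjusted p = 0.00671) and ELOVL6 (-2.99 and -0.81, unadjusted p = 0.0221) had the same order. The unadjusted p was 0.0655 for ANGPTL8 and 0.114 for FASN. Genes outside these 2 lists also had this order, among them EGR1 (-2.20 and -0.29, unadjusted p = 0.0257), PCK2 (-2.01 and -0.16, unadjusted p = 0.0271) and ACSM1 (unadjusted p = 0.028). These genes entered the symbol table through RFI contrasts in these libraries, so the split by RFI class is a description. ACTC1 had the opposite order, at 0.34 in L-RFI and -2.15 in H-RFI steers (unadjusted p = 0.00998). So did other genes, among them LCP1 (-0.46 and -2.55, unadjusted p = 0.0442) and PTPRC (0.55 and -2.68, unadjusted p = 0.0263).

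Steers with no H2 library gave a second view of breed. There were 55 libraries of H1 and ZG from 47 such steers, 25 libraries from CH and 30 from HF. They were fitted by limma voom with phase and RFI class as covariates and the steer as a block. ALB reached 80800 CPM in CH (median 54.5 CPM) and 6320 CPM in HF (median 142 CPM). In CH, FGB reached 16700 CPM and ELOVL6 175 CPM (medians 10.6 and 0.644 CPM), and the lowest MYH6 was 0.403 CPM (median 284 CPM). Libraries with such values were kept, here and in the model of the 3 phases, and no fit was run without them. Of 10459 genes, 27 (0.258%) passed, 4 higher and 23 lower in CH. Of these, 25 were tested in H2, where 22 had the same direction, beside 52.4% of all 9924 genes tested in both sets. In H2, 7 of the 25 had the same direction with an unadjusted p under 0.05, beside 4.57% of all genes. FABP4 was the gene with a symbol among the 27. Its level in these steers was 0 to 20.4 CPM in CH (median 0.983 CPM) and 0.803 to 74.6 CPM in HF (median 5.43 CPM). The log2 difference was -2.11 ± 0.55 (SE), with an adjusted p of 0.0871.

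The remaining fat cell and fatty acid synthesis genes did not pass in those steers but had the sign seen in H2. All 3 fat cell markers tested and all 3 genes of fatty acid synthesis had a negative value with an unadjusted p under 0.05, beside 5.42% of all genes in that direction. The share among genes with a symbol, from which each list member had to come, was not computed for these steers. The study chose those genes in part on H1 and ZG libraries, so this view is not independent of that choice. TRARG1 differed by -1.84 ± 0.51 (SE, adjusted p = 0.141), CIDEC by -1.54 ± 0.48 (SE, adjusted p = 0.236), THRSP by -1.85 ± 0.59 (SE, adjusted p = 0.249), FASN by -0.77 ± 0.29 (SE, adjusted p = 0.380) and ELOVL6 by -1.13 ± 0.50 (SE, adjusted p = 0.538). CYP4B1 (-1.64 ± 0.58, SE, adjusted p = 0.356) and PLEK (0.72 ± 0.23, SE, adjusted p = 0.265) also had the sign seen in H2. Other genes did not. EGR1 was 0.88 ± 0.40 (SE, adjusted p = 0.552), FOSB 0.35 ± 0.70 (SE, adjusted p = 0.979) and MX1 -0.31 ± 0.28 (SE, adjusted p = 0.895), each opposite in sign to H2. PDK4 was -0.12 ± 0.40 (SE, adjusted p = 0.994), opposite in sign to the quasi-likelihood value in H2. In limma voom, PDK4 had the same sign in H2 (-0.20 ± 0.57, SE). ENSBTAG00000004249, the gene that passed in H2, differed by 0.11 ± 0.26 (SE, adjusted p = 0.983) there.

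Breed differences of the 3 phases were compared in 1 model of 105 libraries from 78 steers. Of 10287 genes, 0 (0%) had a breed effect in H2 that differed from H1 at an adjusted p under 0.1 in limma voom, and 0 (0%) one that differed from ZG, with 386 and 570 genes at an unadjusted p under 0.05. An edgeR quasi-likelihood test that ignored the shared steers gave 1 and 74 genes. In the same voom model, 14 genes passed for breed in H1, 17 in ZG and 2 in H2. For FABP4, the log2 breed difference was -0.94 ± 0.54 (SE) in H1, -2.28 ± 0.57 in ZG and -2.05 ± 0.57 in H2, and it passed in ZG (adjusted p = 0.0845). The difference between H2 and H1 had an unadjusted p of 0.152. THRSP was -1.19 ± 0.59, -1.64 ± 0.63 and -2.38 ± 0.65 (SE) in H1, ZG and H2, with an unadjusted p of 0.169 for H2 against H1. PLEK was 0.56 ± 0.25, 0.79 ± 0.26 and 0.69 ± 0.30 (SE). EGR1 was 0.60 ± 0.44 in H1, 0.56 ± 0.44 in ZG and -0.91 ± 0.53 (SE) in H2, and the differences from H2 had unadjusted p of 0.0264 and 0.0328. ENSBTAG00000047547 was -1.95 in H1, -1.84 in ZG and -5.27 ± 1.01 (SE) in H2, where it passed with an adjusted p of 0.00775. The differences of H2 from H1 and ZG had unadjusted p of 0.0137 and 0.014 in this voom model. The CH median of this gene in H2, 0.0633 CPM, was below 0.213 CPM, the level of 3 counts at median depth. The size of its difference depended on the method, at -3.46 in the quasi-likelihood fit.

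**Figure D5:**
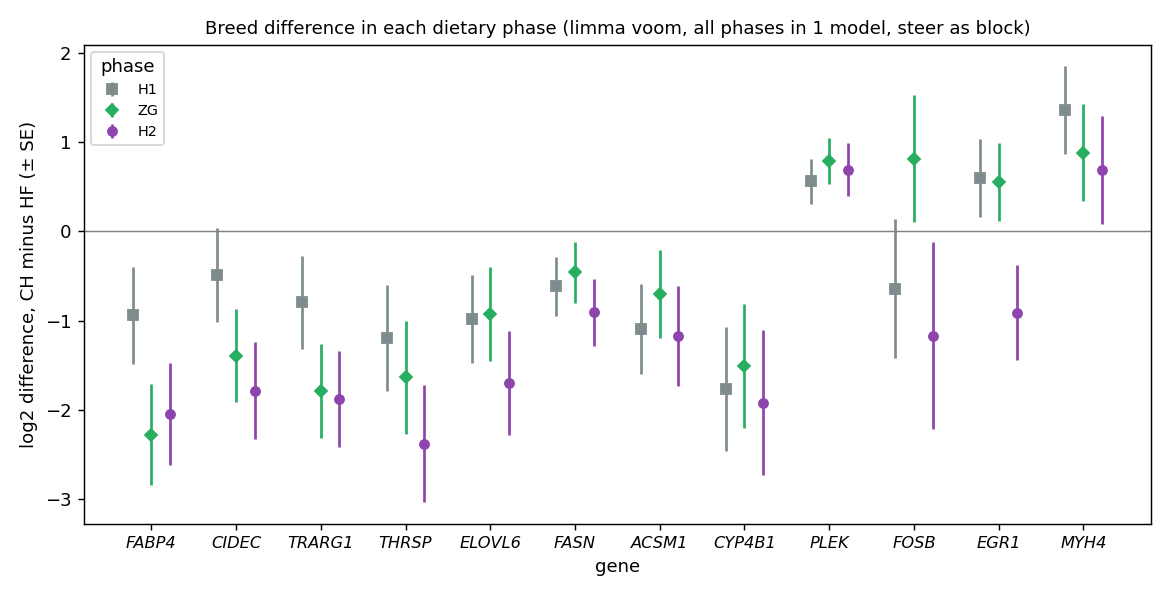
Log2 breed difference (CH minus HF, ± SE) of 12 genes in H1, ZG and H2 from 1 limma voom model. The 8 genes of lipid metabolism and detoxification on the left are below 0 in all 3 phases, PLEK and MYH4 are above 0, and EGR1 is above 0 in H1 and ZG and below 0 in H2.

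The count of genes past the threshold in H2 differed between tests and covariates. DESeq2's Wald test called 42 genes (0.421%), 7 higher and 35 lower in CH. FABP4, THRSP, ELOVL6, TRARG1, ACSM1 and CYP4B1 were among the latter. With DESeq2 the adjusted p was 0.0152 for FABP4 and 0.0186 for THRSP. Limma voom with sample quality weights, which gave libraries weights from 0.293 to 3.16, called 289 genes, 160 higher and 129 lower, with all 4 fat cell markers and all 3 genes of fatty acid synthesis among the latter. Limma voom without these weights called 3 genes. With the first principal component as a covariate, an alternative chosen after seeing the data, 89 genes (0.893%) passed, 31 higher and 58 lower in CH. In that fit PLEK (adjusted p = 0.095) was higher in CH, and FABP4 (adjusted p = 0.0678), ELOVL6, TRARG1, THRSP, ACSM1, LCP1 and FOSB were lower.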

How the data were processed

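RNA-seq was carried out by the authors on poly(A) RNA of muscle biopsies (stranded kit, 50 bp single-end reads). Per the study's methods, reads were trimmed with cutadapt, aligned with STAR to ARS-UCD1.2 and counted with STAR's GeneCounts. The submitters' processing notes name UMD3.1, STAR 2.5.1, HTSeq and DESeq2. The build was not settled and no coordinates are given. The deposited values are raw counts for 24616 Ensembl genes, neither normalized nor filtered. Reverse-strand counts were analysed (98.3 to 99.4% of stranded counts in each H2 library). Intervals and limits given for depth cover counting error only.

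Libraries under 1000000 counts and genes under 1 CPM in more than 50% of libraries were left out. TMM factors (0.639 to 1.43) and edgeR's quasi-likelihood test (RFI class and breed) gave the main results; SE is the log2 difference divided by the root of F. A gene passed at a Benjamini-Hochberg adjusted p under 0.1 and a fold change above 1.5. Levels are TMM-normalized CPM. The breed effect across phases and in other steers was tested by limma voom with the steer as a block (consensus correlation 0.168 and 0.132). Depth and correlations were tested with 100000 permutations. The tests were tested on simulated data. Analyses ran in R 4.3.3 with limma 3.58.1, DESeq2 1.42.0 and edgeR 4.0.16, and figures in matplotlib 3.10.9 under Python 3.11.15. The number of libraries with identical counts was 0.

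Named genes were, of each gene list, members that passed and its leading members, and the 5 genes with a symbol and the smallest p in each direction, because no gene with a symbol passed; others are named because a list is given in full or were chosen after their values were seen. Some genes that the rule would name are not reported here. Lists on glycolysis, heat shock, circadian clock, smooth muscle, nerve and skeletal muscle markers had 0 members with a symbol, and the erythroid list had 0 tested. The lists of MHC genes and nuclear respiratory chain genes had 1 tested member each, and neither passed. Comparisons, members and lists were chosen with earlier results of these data known. Gene symbols came from the study's supplementary table, since the annotation table at hand gave no Ensembl identifiers. The alternatives were other tests (DESeq2, edgeR's exact test, limma voom), dispersions, normalizations, filters, thresholds, covariates, unstranded counts, other depth limits, each RFI class alone, and leaving out each library. Those chosen after seeing the data were voom without weights, the ALB level or the first principal component as covariate, correlations centred within RFI class, and further settings for gene lists and named genes.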

Additional observations from a re-analysis of the deposited data

Results flagged for a closer look

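In groups of 7 or 8 steers, a highest or lowest value was marked where its gap to the next took up more of the group's range than Dixon's test allows. Gaps and ranges were taken on log2 CPM, or on log10 counts for depth, and the values below are given unlogged. Of 192 groups of values tested, 11 were marked, and chance marks about 1 in 20. CH H-RFI replicate 4 was highest for FASN (412 CPM, next 67.6 CPM) and CKB (22.6 CPM, next 4.25 CPM). CH L-RFI replicate 1 had 444 CPM of PDK4 (next 19.1 CPM), and CH L-RFI replicate 6 had 7.54 CPM of LCP1 (next 0.948 CPM). MYH4 stood apart in CH H-RFI replicate 2 (90.4 CPM, next 4.84 CPM) and in HF L-RFI replicate 5 (67.6 CPM, next 2.68 CPM). ORM1 was lowest in CH H-RFI replicate 1 (0.645 CPM, next 3.20 CPM). ENSBTAG00000011196 was lowest in CH L-RFI replicate 7 (0 CPM, next 0.421 CPM) and in HF L-RFI replicate 8 (0.695 CPM, next 1.54 CPM). ENSBTAG00000047547 was highest in CH H-RFI replicate 1 (5.16 CPM, next 0.247 CPM). CH L-RFI replicate 7 had the lowest depth of its group (2201765 counts, next 8036813 counts).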

How the results depend on the processing

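The count of genes past the threshold in H2 (1 of 9966) was 42 with DESeq2, 12 with edgeR's exact test, 289 with voom and sample quality weights, 3 with voom alone, 89 with the first principal component, 7 with a stricter depth limit, 4 with log10 library size as covariate and 2 without a filter. It was 0 with library size only, an adjusted p under 0.05, a fold change tested against 1.5, L-RFI or H-RFI steers alone, or log2 ALB as covariate, and 0 to 8 when each library was left out (8 without HF H-RFI replicate 6, 7 without CH H-RFI replicate 4 or CH L-RFI replicate 7). The cause was not tested. Robust dispersions, RLE factors, filterByExpr, unstranded counts, no RFI covariate, no fold change limit and the libraries under 1000000 counts each gave 1 gene, a different one in the last case. The interaction stayed at 0 in each fit. Members lower in CH by DESeq2, quality weights and the first component were 2, 3 and 2 (fatty acid synthesis), 2, 4 and 2 (fat cell markers), 1, 1 and 1 (uptake and oxidation) and 1, 1 and 2 (immediate early genes). Over all 9966 genes, 35, 129 and 58 were called lower in CH by these fits. The share among genes with a symbol, from which every member came, was not computed for them. Further, DESeq2 called 1 detoxification gene, quality weights 1 growth regulator, and the first component 1 myeloid marker in each direction. PDK4 reversed with DESeq2 (-0.14), quality weights (-0.29) and the first component (-0.21), and ranged from -0.85 to 1.17 when each library was left out. FGB was 0.20 with log2 ALB, a member of the same list, as covariate. No paired analysis was possible because the breeds are different steers. Without a replicate block for the steer, phase differences stayed at 0 and the other steers gave 34 genes instead of 27. EdgeR's test without a block gave 1 (H1) and 74 (ZG) phase differences. The other steers gave 4 genes in H1 alone and 0 in ZG alone. Genes near 1 CPM are limited by depth in the shallowest libraries.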
